A study of Mus musculus with 110 samples.

Results

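Inguinal white adipose tissue (iWAT), the subcutaneous fat pad of the mouse groin, was compared between mice kept at room temperature and mice exposed to cold, both on control diet. The comparison used 14 of the 110 RNA-sequencing libraries of the series: all 7 iWAT libraries of the control diet at 22 °C (Ctrl_RT) and all 7 of the control diet with 24 h at 4 °C (Ctrl_CE). Of the 56884 genes in the count table, the 26428 whose counts over the 27 iWAT libraries of both diets summed to 10 or more were tested. All mice were wild-type males of the C57BL/6N strain, single-housed and 16 weeks old when the experiment ended, and both groups ate a diet with 0.86% methionine and no cysteine. Ctrl_RT mice ate it for 7 days at 22 °C, and Ctrl_CE mice ate it for the same 7 days and then spent an additional day in the cold, so that the cold and the added day on the diet cannot be told apart. Cold and diet were crossed in the study, and the groups on the methionine-restricted diet (0.12% methionine) entered the statistical fit for the estimate of spread only.

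White fat stores triglycerides, but the inguinal depot also holds precursor and white cells that can take on a brown-like, or beige, state in the cold. Noradrenaline from sympathetic nerves acts on beta-adrenergic receptors, cAMP and protein kinase A release fatty acids from the lipid droplet, and uncoupling protein 1 (UCP1) in the inner mitochondrial membrane lets protons re-enter the matrix without making ATP, so that fuel oxidation yields heat. Brown fat of the shoulder region (iBAT) runs this program at all times, and epididymal fat (eWAT) is known to take it on least.

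Total counts ran from 17215367 to 31843742 in Ctrl_RT and from 17423585 to 26317976 in Ctrl_CE. Levels are given below in CPM, the count scaled to a common normalized library total, and 3 CPM values in a row are the lowest, the median and the highest of the 7 libraries of a group. Differences are log2 fold changes of Ctrl_CE against Ctrl_RT with their standard error (SE), tested with edgeR's quasi-likelihood method and adjusted over all genes tested by the Benjamini-Hochberg method, and a differentially expressed gene (DEG) had an adjusted p under 0.05 and changed at least 1.5-fold. "Rose" and "fell" are used of DEGs only.

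Some libraries held high levels of genes typical of other tissues. The summed level of 22 skeletal muscle genes ran from 39.7 to 8163 CPM in Ctrl_RT and from 57.7 to 2142 CPM in Ctrl_CE and passed 1000 CPM in 5 libraries: Ctrl_RT replicates 2, 4 and 6 and Ctrl_CE replicates 1 and 5. Of these 22 genes, 0 were DEGs in either direction, with median log2 fold change -1.52. Myh4, a fast myosin heavy chain, stood at 0, 62.6 and 2535 CPM in Ctrl_RT and 0, 76.6 and 499 CPM in Ctrl_CE (log2 fold change -2.02 ± 1.5, adjusted p = 0.332), and Acta1, skeletal muscle actin, at 0.313, 41.9 and 1139 against 3.60, 50.6 and 303 CPM (-1.70 ± 1.26, adjusted p = 0.33). The summed level of 10 skin and mammary epithelium genes was 265.2 CPM in Ctrl_CE replicate 5 and between 6.36 and 56.9 CPM in the 13 others. Of the 12 adipocyte markers, all had counts in every library, with a summed level of 18456 to 24272 CPM in Ctrl_RT and 19681 to 30759 CPM in Ctrl_CE, whereas the 10 B cell markers, which a lymph node in the depot would bring, summed to between 2.46 and 7.64 CPM in the 14 libraries.

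**Figure D1:**
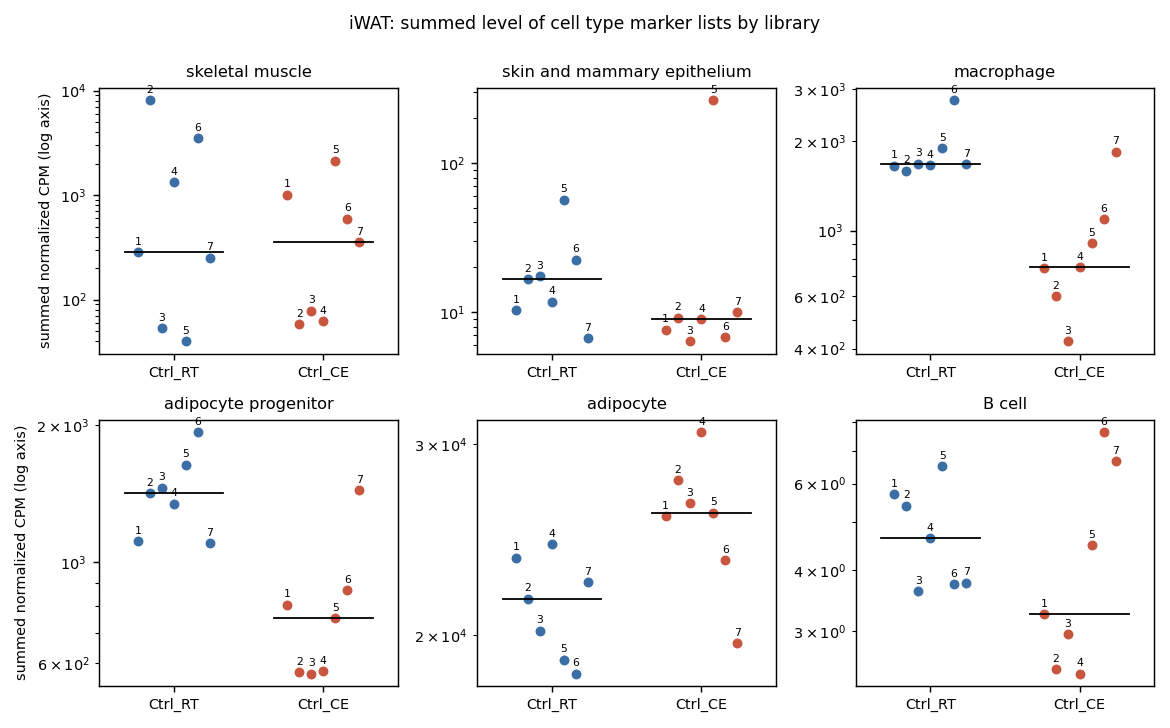
Summed normalized CPM (log axis) of 6 marker lists in the 7 Ctrl_RT (blue) and 7 Ctrl_CE (red) iWAT libraries, with the replicate number at each point and a line at the group's median. Skeletal muscle genes spread from 39.7 to 8163 CPM within Ctrl_RT, Ctrl_CE replicate 5 stands alone in skin and mammary epithelium genes at 265.2 CPM, and Ctrl_CE replicate 7 lies among the Ctrl_RT libraries for macrophage genes at 1845 CPM and progenitor genes at 1438 CPM.

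In iWAT 4211 genes were DEGs between Ctrl_CE and Ctrl_RT: 1584 genes rose (5.99% of those tested) and 2627 fell (9.94%). The median log2 fold change over all genes tested was -0.11, and it was -0.03 over the 13977 genes that averaged 1 CPM or more. Of those 13977 genes 8.21% rose and 12.6% fell. Most members of the lists below, apart from B cell and T cell markers, reached that level. Both pairs of shares therefore stand beside the counts of list members. The 7 Ctrl_CE libraries all lay above the 7 Ctrl_RT libraries for 1117 genes (4.23%) and all below for 627 (2.37%). Without the 5 libraries over 1000 CPM of muscle genes, the counts were 1038 and 1794, in a fit with fewer samples. With the muscle sum as a covariate and all libraries kept, they were 1590 and 2527.

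Brown and beige adipocyte genes had the largest median rise of the lists examined. Of 35 such genes, 25 rose (71.4%, against 5.99% of all genes) and 3 fell (8.57%, near the 9.94% of all genes). The median log2 fold change was 1.45. For 10 of the 35, all Ctrl_CE libraries lay above all Ctrl_RT libraries, which held for 4.23% of all genes tested. Counts of 25 and 3 were also found without Ctrl_CE replicate 5, and 26 and 2 without Ctrl_CE replicate 7.

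Ucp1 stood at 1.27, 72.4 and 449 CPM in Ctrl_RT and 530.1, 2554 and 4481 CPM in Ctrl_CE (log2 fold change 4.08 ± 0.75, adjusted p = 0.000163), a 16.9-fold rise. The groups did not overlap, but they came close: the highest Ctrl_RT library, replicate 7, held 449 CPM, and the lowest Ctrl_CE library, also numbered 7, held 530.1 CPM. Dio2, the deiodinase that makes active thyroid hormone within the cell, had the larger fold change (4.93 ± 0.56, adjusted p = 6.54e-07, 30.5-fold), from 1.49, 2.79 and 6.25 CPM in Ctrl_RT to 22.3, 106 and 268.8 CPM in Ctrl_CE. Every Ctrl_CE library held more Dio2 than every Ctrl_RT library, and within Ctrl_CE Dio2, like Ucp1, was lowest in replicate 7.

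The promoter of Dio2 is shown because it is the 1 promoter of 26 available for the brown and beige list that holds a full cAMP response element. The sequences are from RefSeq on GRCm38.p6 and run from 250 bases before to 50 bases after the start of the gene, read along its strand. Capitals mark the element (TGACGTCA, a palindrome, so the same on both strands), which is present in 2.03% of the 27025 genes with a promoter and absent within this window from the other 25 of the list. The region is chr12:90738989-90739288 on the minus strand, and the match starts at base 156.
Dio2: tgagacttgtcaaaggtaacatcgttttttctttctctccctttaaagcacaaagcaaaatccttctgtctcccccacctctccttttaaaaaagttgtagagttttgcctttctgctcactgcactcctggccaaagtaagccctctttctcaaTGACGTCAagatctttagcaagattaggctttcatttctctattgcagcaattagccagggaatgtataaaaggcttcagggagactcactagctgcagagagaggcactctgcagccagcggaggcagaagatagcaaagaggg
Among the 30 promoters available for adrenergic and cAMP signaling genes, 1 held the element, that of Prkar1a, which was not a DEG (0.41 ± 0.07, adjusted p = 0.000135).

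Transcription regulators of the program differed in size of change. Ppargc1a, the coactivator of mitochondrial biogenesis, rose from 6.51, 9.88 and 15.5 to 18.9, 56.1 and 137 CPM (2.71 ± 0.32, adjusted p = 1.13e-06), and its relative Ppargc1b rose by less, from 7.54, 16.4 and 25.3 to 13.8, 41.3 and 70.6 CPM (1.33 ± 0.32, adjusted p = 0.00203). The estrogen-related receptors Esrrg (2.74 ± 0.46, adjusted p = 6.99e-05) and Esrra (1.27 ± 0.17, adjusted p = 5.97e-06), which act on mitochondrial genes, both rose without overlap between groups. Ppara, the receptor that turns on fatty acid oxidation, also rose (1.37 ± 0.39, adjusted p = 0.00873), with overlapping groups. Prdm16, a determinant of brown identity, missed the fold threshold at 10.7, 18.6 and 25.9 against 16.5, 25.6 and 36.3 CPM (0.55 ± 0.18, adjusted p = 0.0196), and Ebf2, which marks brown and beige precursors, gave -0.07 ± 0.08, adjusted p = 0.535.

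Enzymes and transporters of heat production followed. Elovl3, which lengthens very long fatty acids in active brown fat, stood at 1.80, 12.1 and 73.3 CPM in Ctrl_RT and 82.2, 222 and 565 CPM in Ctrl_CE (3.40 ± 0.61, adjusted p = 0.000134), without overlap. Gk, glycerol kinase, which lets fat reuse glycerol, rose from 6.95, 15.3 and 57.6 to 56.3, 274.9 and 481 CPM (3.53 ± 0.55, adjusted p = 2.74e-05), and 1 Ctrl_CE library, replicate 7, lay within the Ctrl_RT range. Cpt1b, which admits fatty acids into mitochondria, rose from 0.923, 2.68 and 8.08 to 6.05, 20.8 and 36.9 CPM (2.68 ± 0.46, adjusted p = 7.69e-05), again with replicate 7 as the lowest Ctrl_CE library.

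Smaller rises were seen for the lipid droplet protein Cidea (1.45 ± 0.41, adjusted p = 0.00737), with 38.3, 166 and 310.5 CPM in Ctrl_RT and 139, 404 and 732 CPM in Ctrl_CE. Acot11, a thioesterase of brown fat, rose (2.34 ± 0.48, adjusted p = 0.000577), as did the proton channel Otop1 (2.02 ± 0.39, adjusted p = 0.000262), the coenzyme A synthesis enzyme Pank1 (2.33 ± 0.41, adjusted p = 0.000106) and the potassium channel Kcnk3 (1.73 ± 0.24, adjusted p = 9.67e-06). Cytochrome oxidase subunits of thermogenic and muscle tissue rose as well, Cox7a1 from 4.35, 8.41 and 19.7 to 13.2, 34.2 and 63.8 CPM (1.84 ± 0.42, adjusted p = 0.00142) and Cox8b from 39.4, 79.1 and 117 to 77.3, 147 and 211 CPM (0.88 ± 0.26, adjusted p = 0.00974). Without the 5 libraries over 1000 CPM of muscle genes, Cidea (log2 fold change 1.19) and Cox8b (0.75) no longer passed the test.

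The 3 members that fell included a pair of beige markers. Tmem26, a surface marker given to beige cells, fell from 5.73, 7.78 and 15.7 to 0.772, 1.89 and 3.56 CPM (-2.08 ± 0.44, adjusted p = 0.000739), and Cited1, another beige marker, from 0.802, 1.51 and 4.65 to 0.0524, 0.257 and 0.787 CPM (-2.43 ± 0.47, adjusted p = 0.000269). For both, every Ctrl_CE library lay below every Ctrl_RT library. Tnfrsf9, also used as a beige marker, gave -0.70 ± 0.33, adjusted p = 0.115. Another, Tbx1, went the other way by point estimate. In the joint fit with iBAT described below, its iWAT change was 1.07 ± 0.36, from a mean of 3.11 to 6.59 CPM. The third member that fell was Adrb3, the beta3-adrenergic receptor, described with the signaling genes.

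**Figure D2:**
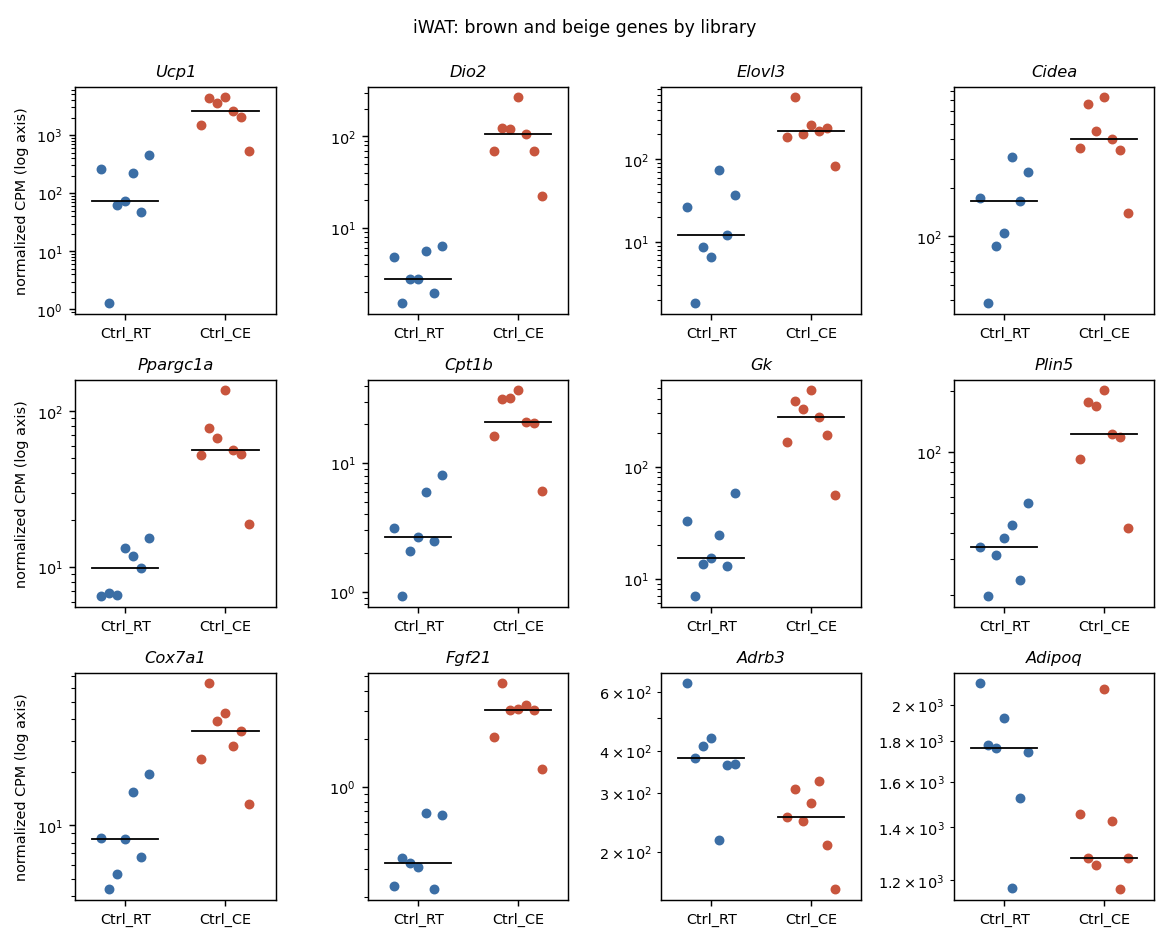
Normalized CPM (log axis) of 12 genes in each of the 7 Ctrl_RT (blue) and 7 Ctrl_CE (red) iWAT libraries, in replicate order from left to right, with a line at the group's median. Ucp1, Dio2, Elovl3, Ppargc1a and Fgf21 do not overlap between groups, the last red point of most panels (Ctrl_CE replicate 7) is the lowest of its group, and Adrb3 and Adipoq do not rise.

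Receptors and enzymes of cAMP signaling moved in both directions: 11 of 39 rose (28.2%) and 6 fell (15.4%), against 5.99% and 9.94% of all genes. The share of falls was near the 12.6% of genes averaging 1 CPM or more. Without the 5 libraries over 1000 CPM of muscle genes, 3 of the 39 fell. Adrb3, the main beta-receptor of rodent fat, fell from 217, 382 and 637 to 155, 254.8 and 326 CPM (-0.66 ± 0.20, adjusted p = 0.0122), a call that was lost without Ctrl_RT replicate 1 (log2 fold change -0.51) or without Ctrl_CE replicate 7 (-0.57). Adrb1 rose from 5.98, 6.78 and 12.7 to 7.69, 20.3 and 40.8 CPM (1.54 ± 0.27, adjusted p = 9.65e-05). Gpr3, a receptor that signals through cAMP without a known ligand, was at 0, 0.0280 and 0.104 CPM in Ctrl_RT and 0.489, 0.782 and 1.52 CPM in Ctrl_CE (4.35 ± 0.55, adjusted p = 2.34e-06), a low level with no overlap.

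The adenylyl cyclases, which make cAMP, changed in opposite directions. Adcy3 rose from 30.2, 38.5 and 54.2 to 48.9, 133 and 320.1 CPM (2.0 ± 0.33, adjusted p = 4.73e-05), whereas Adcy5 fell from 84.9, 219 and 334 to 54.6, 77.4 and 106 CPM (-1.51 ± 0.29, adjusted p = 0.000242). Adcy7 (-0.98 ± 0.25, adjusted p = 0.00342) and Adcy2 (-1.19 ± 0.41, adjusted p = 0.0293) fell too. The protein kinase A subunits Prkaca (0.90 ± 0.12, adjusted p = 4.31e-06) and Prkar2b (0.72 ± 0.15, adjusted p = 0.000569) rose, as did the cAMP-responsive genes Nr4a2 (1.25 ± 0.17, adjusted p = 5.53e-06), Nr4a3 (1.35 ± 0.35, adjusted p = 0.00418) and Sik1 (0.83 ± 0.25, adjusted p = 0.0112), while Nr4a1 gave 0.81 ± 0.47, adjusted p = 0.202.

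Cycles that can make heat without UCP1 were less uniform, with 6 of 17 genes higher (35.3%, against 5.99% of all genes) and 0 lower. The glycerol phosphate shuttle, which passes electrons from the cytosol to the respiratory chain, rose in both parts: cytosolic Gpd1 went from 2298, 2582 and 4497 to 5799, 8296 and 12333 CPM (1.63 ± 0.24, adjusted p = 1.33e-05) and mitochondrial Gpd2 from 135, 207 and 425 to 355, 589 and 819.9 CPM (1.5 ± 0.25, adjusted p = 6.65e-05). Atp2a2, the calcium pump of the endoplasmic reticulum, rose without overlap (0.76 ± 0.12, adjusted p = 2.23e-05), and so did the ADP/ATP carrier Slc25a5 (0.85 ± 0.12, adjusted p = 7.02e-06). Alpl, a phosphatase placed in the creatine cycle, rose (1.37 ± 0.34, adjusted p = 0.00266), but the creatine kinases did not pass the test: Ckb stood at 37.2, 43 and 62.6 against 37.1, 53.2 and 91.6 CPM (0.23 ± 0.18, adjusted p = 0.353) and Ckmt2 gave -0.45 ± 1.16, adjusted p = 0.817. Pm20d1, which makes N-acyl amino acids, rose as well (1.30 ± 0.22, adjusted p = 8.44e-05). Atp2a1 and Ryr1 are also skeletal muscle genes, and gave -1.60 ± 1.35, adjusted p = 0.402 and -1.76 ± 1.14, adjusted p = 0.256.

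Paired isoforms allowed a comparison within a library. For 11 pairs the log2 ratio of the thermogenic or muscle form to the other form was compared between groups with an exact two-sided permutation test over the 7 and 7 libraries, whose smallest possible p is 0.000583. In 9 pairs the ratio was higher in Ctrl_CE after Benjamini-Hochberg adjustment over the 11. The ratio of Cpt1b to Cpt1a rose by 2.93 (exact p = 0.00117, adjusted 0.00321), with Cpt1a itself at -0.16 ± 0.19, adjusted p = 0.586. That of Fabp3 to Fabp4 rose by 3.99 (exact p = 0.00117, adjusted 0.00321), that of Cox7a1 to Cox7a2 by 1.38 (exact p = 0.00233, adjusted 0.00513), and that of Cox8b to Cox8a by 0.41 (exact p = 0.0297, adjusted 0.0363).

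Within the uncoupling protein family, Ucp3 rose (1.01 ± 0.17, adjusted p = 9.03e-05) and Ucp2 fell (-0.71 ± 0.14, adjusted p = 0.000407), from 117, 158 and 211 to 63.5, 89.8 and 125 CPM, and the ratios of Ucp1 and Ucp3 to Ucp2 rose by 5.73 and 1.74 on the log2 scale (exact p = 0.000583 for each, the smallest possible, adjusted 0.00321). The 2 pairs that did not pass were Cox6a2 to Cox6a1 (change -1.65, exact p = 0.128) and Atp2a1 to Atp2a2 (-1.45, exact p = 0.529). Because Cox7a1, Cox8b, Cpt1b and Fabp3 are expressed in muscle too, the muscle sums given above stand beside them. With the muscle sum as a covariate Cpt1b, Cox7a1, Cox8b and Fabp3 stayed DEGs, and without the 5 libraries over 1000 CPM of muscle genes Cox8b did not.

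Genes that bring fatty acids into the cell and activate them rose in 10 of 19 cases (52.6%, against 5.99% of all genes), with 0 lower. The median log2 fold change was 0.68, and 6 rose without the 5 libraries over 1000 CPM of muscle genes. Fabp3, a fatty acid carrier of oxidative tissue, went from 1.01, 3.05 and 17.4 to 11.4, 70.6 and 369 CPM (4.22 ± 0.81, adjusted p = 0.000281) and Slc27a2, a very long chain acyl-CoA synthetase, from 0.264, 3.22 and 14.4 to 6.98, 26.5 and 97.9 CPM (2.79 ± 0.65, adjusted p = 0.00174). Lpl, which frees fatty acids from circulating triglycerides, rose without overlap from 3979, 5872 and 6065 to 7352, 8986 and 10092 CPM (0.68 ± 0.12, adjusted p = 0.000165). Its inhibitors split: Angptl8 rose (1.67 ± 0.53, adjusted p = 0.0175, and 1.35 and not a DEG without the 5 libraries over 1000 CPM of muscle genes), and Angptl4 stood at 44.96, 423 and 589 against 93.1, 227 and 309.6 CPM (-0.79 ± 0.40, adjusted p = 0.141).

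Lipolysis genes changed little by comparison, with 5 of 20 higher (25%, against 5.99% of all genes) and 2 lower (10%, near the 9.94% of all genes). The triglyceride lipase Pnpla2 gave 0.32 ± 0.15, adjusted p = 0.119 and the hormone-sensitive lipase Lipe 0.36 ± 0.10, adjusted p = 0.00567, under the fold threshold. The droplet coats Plin5 (1.91 ± 0.29, adjusted p = 2.58e-05) and Plin2 (1.27 ± 0.17, adjusted p = 4.24e-06) rose, as did Cideb at a level under 2 CPM (2.39 ± 0.60, adjusted p = 0.00327). The 2 that fell were receptors that restrain lipolysis: the lactate receptor Hcar1, from 72.7, 134 and 213 to 42.2, 47.3 and 59.2 CPM without overlap (-1.49 ± 0.22, adjusted p = 1.78e-05), and the ketone body receptor Hcar2 (-1.26 ± 0.24, adjusted p = 0.000253).

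In fatty acid oxidation 13 of 27 genes rose (48.1%) and 1 fell (3.7%), against 5.99% and 9.94% of all genes. Without the 5 libraries over 1000 CPM of muscle genes, 7 of the 27 rose. Besides Cpt1b, the carnitine carrier Slc25a20 (1.29 ± 0.26, adjusted p = 0.000384) and Pdk4, the kinase that holds back pyruvate oxidation (1.97 ± 0.47, adjusted p = 0.00212), were among the largest rises.

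Fatty acid synthesis rose together with oxidation. Of 21 genes of de novo lipogenesis 16 rose (76.2%, against 5.99% of all genes) and 0 fell, with median log2 fold change 0.98. Me1, malic enzyme, went from 569, 1409 and 4825 to 4525, 4973 and 6138 CPM (1.55 ± 0.38, adjusted p = 0.00261), Acly, ATP citrate lyase, from 1475, 3574 and 10027 to 8869, 9749 and 12545 CPM (1.41 ± 0.40, adjusted p = 0.00827), and Fasn, fatty acid synthase, from 12119, 19802 and 39473 to 38569, 45529.9 and 53388 CPM (1.11 ± 0.26, adjusted p = 0.00193). In each of them the groups overlapped through a single Ctrl_RT library, replicate 5, which held 4825 CPM of Me1 and 10027 CPM of Acly. Without the 5 libraries over 1000 CPM of muscle genes, 9 of the 21 rose, and Me1 (1.41) and Acly (1.27) were not among them.

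Triglyceride synthesis rose in 9 of 12 genes (75%, against 5.99% of all genes). Among them were Gk, Gpd1, the acyltransferase Agpat2 (1.39 ± 0.16, adjusted p = 9.44e-07) and the phosphatase Lpin1 (1.20 ± 0.17, adjusted p = 1.22e-05). Both last-step enzymes, Dgat1 (0.88 ± 0.09, adjusted p = 1.27e-07) and Dgat2 (0.74 ± 0.16, adjusted p = 0.000873), rose too. Pck1, the enzyme of glycerol formation from pyruvate, gave 0.02 ± 0.32, adjusted p = 0.978.

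Glucose uptake and glycolysis rose in 14 of 18 genes (77.8%, against 5.99% of all genes) and fell in 0, with median log2 fold change 1.02. Slc2a4, the insulin-responsive glucose transporter, stood at 226, 281.3 and 537 against 537, 609 and 788 CPM, with groups that met but did not overlap (0.99 ± 0.18, adjusted p = 0.000146), and hexokinase 2 (Hk2) at 143, 193 and 604 against 487, 717 and 817 CPM (1.51 ± 0.28, adjusted p = 0.000202). Slc2a1, the transporter of basal uptake, gave -0.34 ± 0.10, adjusted p = 0.0102 and hexokinase 1 (Hk1) -0.17 ± 0.12, adjusted p = 0.329. Ldhb (1.47 ± 0.29, adjusted p = 0.000384) and Pgam1 (1.21 ± 0.18, adjusted p = 1.98e-05) rose too.

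Pyruvate and tricarboxylic acid (TCA) cycle genes had 22 of 27 members higher (81.5%, against 5.99% of all genes) and 0 lower, with median 1.02. The largest were the pyruvate dehydrogenase subunits Dlat (1.54 ± 0.20, adjusted p = 3.26e-06) and Pdhb (1.37 ± 0.22, adjusted p = 3.32e-05), Idh3a (1.49 ± 0.20, adjusted p = 6.63e-06) and citrate synthase, Cs (1.27 ± 0.17, adjusted p = 4.94e-06), all 4 without overlap. Cs went from 480.2, 523 and 907 to 924, 1382 and 1786 CPM. Idh2 gave 0.17 ± 0.09, adjusted p = 0.189.

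Subunits of the respiratory chain were counted by complex. Complex I had 25 of 36 nuclear subunits higher and 0 lower (median 0.68, from 0.21 to 0.97), complex III 9 of 10 (median 0.90), complex IV 7 of 15 (median 0.55, from -1.15 to 1.84), and ATP synthase 9 of 16 with 1 lower (median 0.60, from -0.70 to 0.97). The shares higher were, in that order, 69.4%, 90%, 46.7% and 56.25%, against 5.99% of all genes. The share lower in ATP synthase was 6.25%, against 9.94% of all genes. Cycs, cytochrome c, rose most of the complex III list, from 48.9, 67.5 and 113 to 119.7, 172 and 260.1 CPM (1.38 ± 0.20, adjusted p = 1.38e-05). The exception in ATP synthase was Atpif1, its inhibitory factor, which fell from 10.6, 13.9 and 16.9 to 4.87, 8.94 and 11.8 CPM (-0.70 ± 0.16, adjusted p = 0.00146).

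Of 13 mRNAs made in the mitochondrion itself 5 rose (38.5%, against 5.99% of all genes) and 0 fell, with median 0.54. The number that rose was 3 without Ctrl_RT replicate 2 or without the 5 libraries over 1000 CPM of muscle genes, and 8 without Ctrl_RT replicate 5. The summed CPM of the 13 mRNAs, as a share of the normalized library total, was 3.16% to 4.8% in Ctrl_RT and 3.75% to 7.2% in Ctrl_CE. The medians were 3.55% and 5.62%. The scaling factors in that total had medians of 1.13 in Ctrl_RT and 0.936 in Ctrl_CE, so these are not shares of raw counts. Of the 13 mRNAs, 3 averaged under 1 CPM, and the DEG mt-Co3 averaged 1.17 CPM. mt-Nd1 rose from 3665, 4128 and 5333 to 5429, 8199 and 11183 CPM (0.98 ± 0.17, adjusted p = 0.000104), and mt-Co1 gave 0.54 ± 0.16, adjusted p = 0.0113. Of 20 genes of branched-chain amino acid catabolism 2 were higher and 2 lower, close to the 5.99% and 9.94% of all genes, and 5 were higher without Ctrl_CE replicate 7, 4 without Ctrl_RT replicate 5 and 1 without Ctrl_CE replicate 1 or 2. There the mitochondrial importer Slc25a44 rose (0.80 ± 0.14, adjusted p = 0.000144), and the cytosolic aminotransferase Bcat1 fell without overlap (-1.47 ± 0.28, adjusted p = 0.000241).

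**Figure D3:**
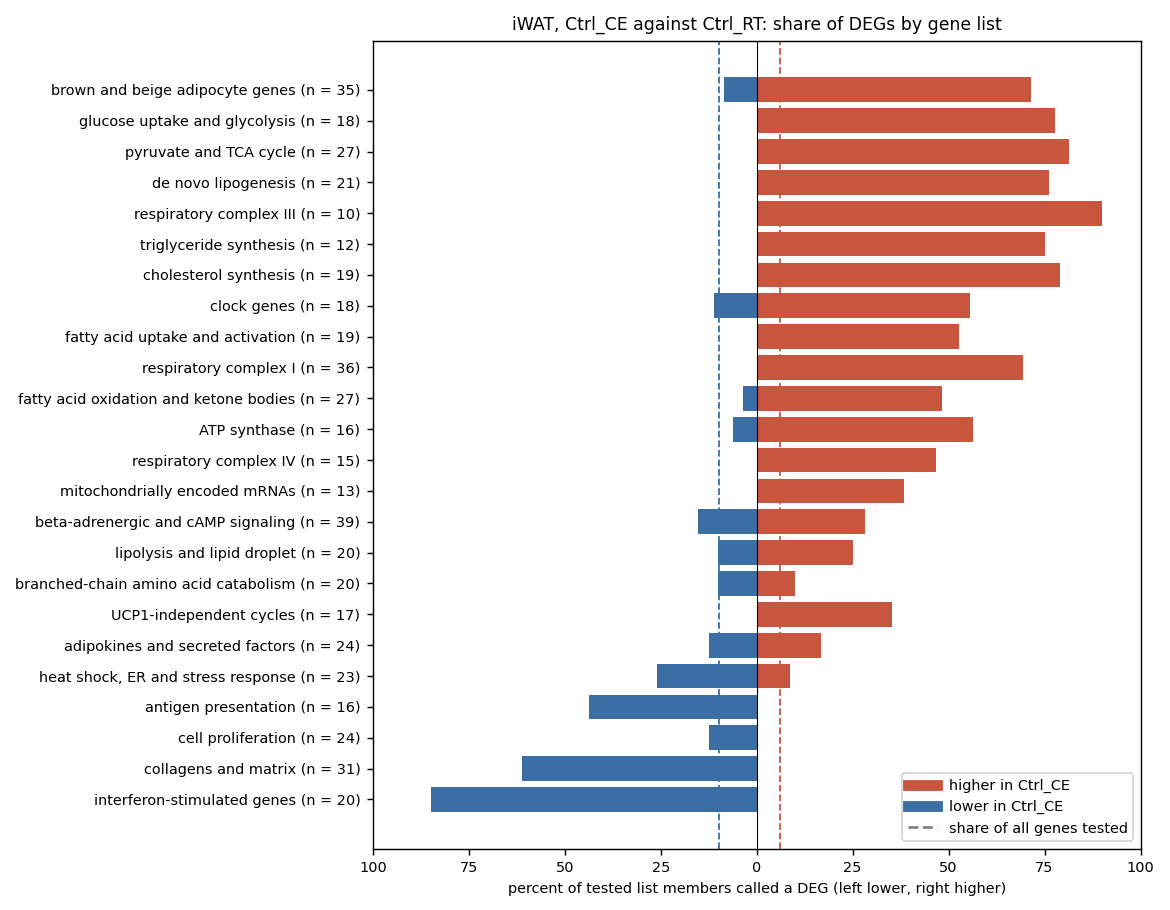
Percent of the tested members of 24 gene lists that were DEGs higher in Ctrl_CE (right, red) or lower (left, blue), ordered by median log2 fold change, with dashed lines at the shares of all genes tested, 5.99% and 9.94%. Lists of fuel use and the respiratory chain extend right, and collagens and interferon-stimulated genes extend left only.

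Cholesterol synthesis rose in 15 of 19 genes (78.9%, against 5.99% of all genes), with 0 lower and median log2 fold change 0.80. Hsd17b7 (1.47 ± 0.20, adjusted p = 5.91e-06), Sc5d (1.13 ± 0.20, adjusted p = 8.73e-05) and squalene epoxidase, Sqle (1.09 ± 0.24, adjusted p = 0.000873), rose without overlap, whereas the regulator Srebf2 gave 0.21 ± 0.08, adjusted p = 0.0488. Without the 5 libraries over 1000 CPM of muscle genes, 7 of the 19 rose. The promoter of Hmgcs1, an early enzyme of the pathway (0.76 ± 0.19, adjusted p = 0.00296), is printed because it alone of the 14 promoters available for the list holds the sterol regulatory element searched here (TCACNCCAC on either strand, in capitals), which 1.44% of the 27025 genes hold. It lies at chr13:119690101-119690400 on the plus strand, with the match from base 114.
Hmgcs1: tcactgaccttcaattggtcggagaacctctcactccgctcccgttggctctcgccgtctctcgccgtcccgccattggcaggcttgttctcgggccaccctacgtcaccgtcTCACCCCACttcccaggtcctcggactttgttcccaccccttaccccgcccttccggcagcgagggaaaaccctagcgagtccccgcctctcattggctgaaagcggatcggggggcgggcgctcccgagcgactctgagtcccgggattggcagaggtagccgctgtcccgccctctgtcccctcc

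Clock genes changed in 12 of 18 cases: 10 rose (55.6%, against 5.99% of all genes) and 2 fell (11.1%, near the 9.94% of all genes). The outputs Dbp, from 3.82, 13 and 72.2 to 39.9, 84.6 and 123 CPM (1.60 ± 0.46, adjusted p = 0.00916), and Hlf, from 5.51, 7.23 and 12.8 to 19.4, 22.8 and 32.7 CPM (1.49 ± 0.20, adjusted p = 5.85e-06), and the repressors Per2 (1.45 ± 0.27, adjusted p = 0.000201), Per3 (1.09 ± 0.26, adjusted p = 0.00173) and Nr1d1 (0.80 ± 0.14, adjusted p = 0.000135) were higher. The activators Arntl (-1.11 ± 0.19, adjusted p = 9.66e-05) and Npas2 were lower, Npas2 from 6.04, 11.2 and 15.1 to 1.40, 1.62 and 3.09 CPM without overlap (-2.53 ± 0.29, adjusted p = 7.67e-07), while Clock gave 0.03 ± 0.09, adjusted p = 0.822. By the study's methods, tissue of all groups was taken in the same morning window of the light phase. An E-box (CACGTG, a palindrome) stood in 5 of the 15 promoters available (33.3%, against 8.09% of all genes), those of Bhlhe41, Tef, Ciart, Per1 and Cry1. Of these 5 genes 3 were DEGs. The share of E-boxes follows from the kind of list and was not a test of the cold response.

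Secreted factors gave 4 rises (16.7%) and 3 falls (12.5%) among 24 genes, against 5.99% and 9.94% of all genes tested. The share of falls was thus near that of all genes. Without Ctrl_RT replicate 5 there were 6 falls. Fgf21, a metabolic hormone, rose at a low level from 0.224, 0.330 and 0.677 to 1.29, 3.03 and 4.51 CPM without overlap (2.84 ± 0.37, adjusted p = 4.24e-06), and Bmp8b, a factor of brown fat, from 0, 0.0560 and 0.155 to 0.0823, 0.393 and 2.19 CPM (3.37 ± 0.95, adjusted p = 0.00768). Nrg4, a brown fat factor that acts on nerves and liver, rose without overlap (0.78 ± 0.12, adjusted p = 1.71e-05). Leptin (Lep) rose from 83.1, 239 and 328 to 150.1, 405 and 726 CPM (0.89 ± 0.32, adjusted p = 0.0331), a call lost when any of 5 single libraries was left out, with log2 fold changes from 0.71 to 0.86 in those fits. Adiponectin (Adipoq) stood at 1172, 1764 and 2132 against 1169, 1280.0 and 2097 CPM (-0.27 ± 0.14, adjusted p = 0.156). Metrnl, made by fat, muscle and macrophages, fell (-1.15 ± 0.28, adjusted p = 0.00215), as did the chemokine Ccl2 and the matrix protein Sparc (-0.77 ± 0.19, adjusted p = 0.00328).

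Of 23 stress genes 2 were higher (8.7%, near the 5.99% of all genes) and 6 lower (26.1%, against 9.94% of all genes). Without Ctrl_CE replicate 7 there were 5 higher, and without Ctrl_RT replicate 2 there were 4. Rbm3, the cold-inducible RNA-binding protein, rose from 46.8, 69 and 74.2 to 111, 126 and 139 CPM without overlap (0.95 ± 0.09, adjusted p = 1.27e-07), with a small spread, while its relative Cirbp gave 0.08 ± 0.14, adjusted p = 0.733. Chaperones of the endoplasmic reticulum fell without overlap: Sdf2l1 (-1.40 ± 0.21, adjusted p = 1.91e-05), Pdia4 (-0.89 ± 0.12, adjusted p = 3.2e-06), Creld2 (-0.86 ± 0.13, adjusted p = 1.84e-05) and Hsp90b1 (-0.59 ± 0.09, adjusted p = 3.17e-05). Hspa5 gave -0.21 ± 0.12, adjusted p = 0.181. The inducible heat shock genes Hspa1a (-0.91 ± 0.20, adjusted p = 0.00121) and Hspa1b (-1.04 ± 0.23, adjusted p = 0.00108), near-identical copies whose reads may be split between them, fell as well.

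Extracellular matrix genes were lower in the cold. Of 31 collagen and matrix genes 19 fell (61.3%, against 9.94% of all genes tested) and 0 rose, with median log2 fold change -1.14. Col1a1 fell from 2154, 4915 and 9121 to 198, 1173 and 3688 CPM (-1.98 ± 0.48, adjusted p = 0.00231) and Col3a1 from 3630.0, 7363 and 12541 to 319, 2207 and 5086 CPM (-1.78 ± 0.40, adjusted p = 0.00127), the fibril collagens of connective tissue. Fibrillin 1 (Fbn1) fell without overlap, from 281.5, 508 and 932 to 37.98, 125 and 238 CPM (-2.13 ± 0.37, adjusted p = 9.95e-05), and Timp1, an inhibitor of matrix proteases, fell from 2.74, 16.6 and 44.8 to 0.494, 1.28 and 3.51 CPM (-3.51 ± 0.53, adjusted p = 2.05e-05). Basement membrane collagens that surround adipocytes and vessels did not pass the test: Col4a1 gave -0.20 ± 0.19, adjusted p = 0.472 and Col15a1 0.21 ± 0.26, adjusted p = 0.5851. Without Ctrl_CE replicate 7, 23 of the 31 fell.

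Markers of adipocyte progenitors, the fibroblast-like cells that make much of this matrix, were lower beside it, and their part in the matrix result was not tested. Of 12, 7 fell (58.3%, against 9.94% of all genes) and 1 rose (8.33%, near the 5.99% of all genes). Their summed level was 1101, 1416 and 1931 CPM in Ctrl_RT and 570, 755 and 1438 CPM in Ctrl_CE. The number that fell was 3 without the 5 libraries over 1000 CPM of muscle genes and 4 without Ctrl_RT replicate 6. Pdgfra, a growth factor receptor of these cells, fell (-0.98 ± 0.22, adjusted p = 0.00113), as did Ly6a, from 213, 272.1 and 360.1 to 62.3, 107 and 199 CPM without overlap (-1.35 ± 0.24, adjusted p = 0.000106), and Dpp4, a marker of early progenitors (-1.14 ± 0.41, adjusted p = 0.0347). The call for Dpp4 was lost when any of 8 single libraries was left out, with log2 fold changes from -1.11 to -0.96. The marker that rose was F3, tissue factor, from 22.4, 35 and 37.7 to 56.3, 73.2 and 84.2 CPM without overlap (1.19 ± 0.13, adjusted p = 4.17e-07). The 11 endothelial and 10 smooth muscle and pericyte markers held 0 DEGs in either direction, with medians of 0.10 and 0.09. In whole tissue, fewer cells of a type and less RNA per cell cannot be told apart.

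Macrophage markers fell in 11 of 16 cases (68.75%, against 9.94% of all genes) and rose in 0, with median -0.97. Adgre1, the F4/80 antigen, stood at 66.99, 80.4 and 128 CPM in Ctrl_RT and 13.8, 27.98 and 71.1 CPM in Ctrl_CE (-1.33 ± 0.32, adjusted p = 0.00225), Fcgr1, a high-affinity Fc receptor, at 14.8, 32.3 and 138 against 2.32, 5.84 and 14.9 CPM (-2.63 ± 0.48, adjusted p = 0.000156), and C1qb, a complement component, at 207, 234 and 404 against 42.4, 105 and 246.8 CPM (-1.18 ± 0.34, adjusted p = 0.00844). Their summed level ran from 1592 to 2759 CPM in Ctrl_RT and from 422 to 1845 CPM in Ctrl_CE, where only replicate 7 exceeded the lowest Ctrl_RT library. Without the 5 libraries over 1000 CPM of muscle genes, 3 of the 16 fell, and C1qb (-1.01) was not among them. B cell and T cell markers held 0 DEGs, and 2 T cell markers fell without Ctrl_CE replicate 7. Granulocyte genes Cxcr2 (-3.05 ± 0.94, adjusted p = 0.0143) and Csf3r (-1.96 ± 0.47, adjusted p = 0.00204) fell, while S100a8 gave -1.11 ± 0.74, adjusted p = 0.279. Without Ctrl_RT replicate 7, Cxcr2 was no longer a DEG (-1.0).

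Cell cycle genes were lower by point estimate in 23 of 24 cases, but only 3 fell (12.5%, near the 9.94% of all genes). These were the replication helicase subunits Mcm2 (-0.66 ± 0.15, adjusted p = 0.00184), Mcm4 (-0.70 ± 0.14, adjusted p = 0.000354) and Mcm6 (-0.66 ± 0.17, adjusted p = 0.00438). Mcm2 fell short of the fold threshold without Ctrl_RT replicate 1 (-0.54) or 7 (-0.58), and Mcm6 without Ctrl_RT replicate 1 (-0.57) or Ctrl_CE replicate 2 (-0.58) or 4 (-0.57). Mki67 gave -0.64 ± 0.45, adjusted p = 0.299. Without Ctrl_CE replicate 5, the library with skin genes, 10 of the 24 fell, and without other single libraries from 1 (Ctrl_RT replicate 1) to 6 (Ctrl_RT replicate 4).

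**Figure D4:**
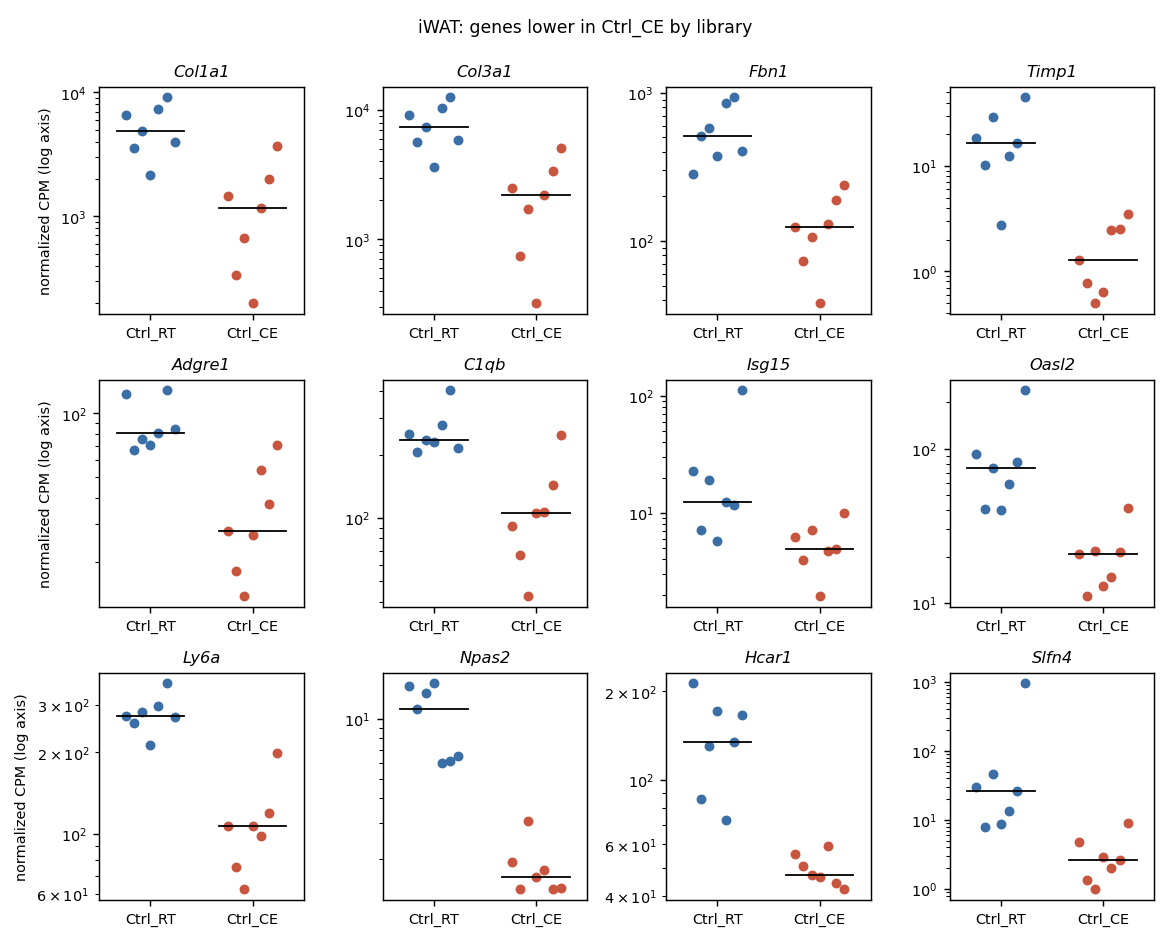
Normalized CPM (log axis) of 12 genes lower in Ctrl_CE, in each of the 7 Ctrl_RT (blue) and 7 Ctrl_CE (red) iWAT libraries, in replicate order from left to right, with a line at the group's median. Fbn1, Ly6a, Npas2 and Hcar1 do not overlap, and Slfn4 and Isg15 have their highest value in Ctrl_RT replicate 7, at 961 and 111 CPM.

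Interferon-stimulated genes, the antiviral set that type I interferon switches on, fell in 17 of 20 cases (85%, against 9.94% of all genes) and rose in 0. The median log2 fold change was -1.68. Isg15, a ubiquitin-like modifier, stood at 5.78, 12.3 and 111 CPM in Ctrl_RT and 1.94, 4.95 and 10 CPM in Ctrl_CE (-2.28 ± 0.48, adjusted p = 0.000618), Mx1, an antiviral GTPase, at 5.11, 12.4 and 99.9 against 1.99, 3.48 and 9.11 CPM (-2.62 ± 0.54, adjusted p = 0.000552), and Oasl2 at 40.2, 75.3 and 239 against 11.1, 20.8 and 41.5 CPM (-2.12 ± 0.34, adjusted p = 4.57e-05). The regulator Irf7 fell too (-1.68 ± 0.30, adjusted p = 0.000132). Ctrl_RT replicate 7 was the highest library for Isg15 and Mx1, at 111 and 99.9 CPM. Without it 15 of the 20 still fell, with a median of -0.90, and Cxcl10, the interferon-induced chemokine (-3.67 ± 0.82, adjusted p = 0.00116), was no longer a DEG (log2 fold change -0.75). The macrophage sums given above were lower in the same group, and their part in this result was not tested.

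Promoters of these genes were searched for the element named after the interferon response. A high share follows from the kind of list and was not a test of these data. The core of the interferon-stimulated response element, 2 GAAA half-sites with 2 bases between them on either strand, stood in 11 of the 15 promoters available (73.3%), against 3.99% of all 27025 genes. Of these 11 genes, 9 fell, and Gbp2 and Gbp3 were not DEGs. The promoters of Isg15 (chr4:156200769-156201068, minus strand, 3 overlapping matches from base 173) and Ifit1 (chr19:34640639-34640938, plus strand, 2 matches from base 147, on the opposite strand) are given as examples, with the matches in capitals. Ifit1 fell from 10.5, 26.7 and 131 to 3.88, 9.14 and 20.2 CPM (-1.91 ± 0.43, adjusted p = 0.00131).
Isg15: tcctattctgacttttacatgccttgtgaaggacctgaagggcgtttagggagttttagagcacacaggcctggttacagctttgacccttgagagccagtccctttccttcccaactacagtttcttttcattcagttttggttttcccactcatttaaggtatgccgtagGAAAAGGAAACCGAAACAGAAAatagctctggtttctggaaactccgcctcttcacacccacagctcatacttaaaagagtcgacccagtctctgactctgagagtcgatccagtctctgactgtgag
Ifit1: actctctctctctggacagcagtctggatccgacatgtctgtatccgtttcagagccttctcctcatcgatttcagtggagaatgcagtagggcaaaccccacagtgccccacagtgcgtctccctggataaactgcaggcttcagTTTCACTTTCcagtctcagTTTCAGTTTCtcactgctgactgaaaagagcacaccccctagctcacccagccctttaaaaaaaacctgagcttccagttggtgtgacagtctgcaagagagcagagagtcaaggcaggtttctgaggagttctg

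Of 16 antigen presentation genes 7 fell (43.75%, against 9.94% of all genes), with median -0.53. The count was 3 with apeglm shrinkage, 4 without the 5 libraries over 1000 CPM of muscle genes, and 3, 2, 4 and 3 without Ctrl_RT replicate 6 or Ctrl_CE replicates 2, 3 and 4. Psmb9, an immunoproteasome subunit, fell without overlap (-0.71 ± 0.11, adjusted p = 3.86e-05), as did the peptide transporter Tap1 with overlap (-0.69 ± 0.13, adjusted p = 0.00031) and the class II genes Cd74 (-0.65 ± 0.19, adjusted p = 0.0105) and H2-Ab1 (-0.61 ± 0.19, adjusted p = 0.014). Without Ctrl_RT replicate 7, Tap1 fell short of the fold threshold (-0.52). The class I heavy chains H2-K1 (-0.20 ± 0.09, adjusted p = 0.107) and H2-D1 (-0.19 ± 0.09, adjusted p = 0.105) were not DEGs.

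Ranked by size among genes that averaged 1 CPM or more, the 15 largest rises of the whole comparison were hair follicle genes from 1 library. Krt71, Krt27, Krt72, Krt25, Krt73, Krt75, Krt81, Krt35, Krt26, Krt83 and Krt33a are keratins of hair and its inner root sheath, Krtap8-1, Krtap7-1 and Krtap15 are keratin-associated proteins, and Prr9 is expressed in the hair follicle. Krt71 stood at 231 CPM in Ctrl_CE replicate 5 and at 0 in the other 13 libraries. Of 96 Krt and Krtap genes tested, 60 were DEGs higher in Ctrl_CE, and in 83 of the 96 Ctrl_CE replicate 5 held the highest level of the 14 libraries. Without that library 1 of the 96 was a DEG higher in Ctrl_CE.

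Without Ctrl_CE replicate 5 the same ranking gave a list with 0 keratin genes, made after the values were seen. Sgk2, a kinase of the SGK family, stood at 0, 0.0440 and 0.330 CPM in Ctrl_RT and 0.356, 3.82 and 14.2 CPM in Ctrl_CE (log2 fold change without the library 5.89 ± 0.87, adjusted p = 2.35e-05). Dio2, Fabp3, Ucp1, Gk and Elovl3, described above, were among the 15. Lgr6, a receptor of stem cells in skin and other tissues, was at 0, 0.220 and 1.38 against 2.76, 8.99 and 33.7 CPM (4.43 ± 0.81, adjusted p = 0.000205). Phospho1, a phosphatase known from mineralizing tissue, was at 6.08, 9.32 and 16.4 against 23.7, 69.2 and 130.3 CPM (3.0 ± 0.41, adjusted p = 9.9e-06), without overlap. Mfsd2a, a lysophospholipid transporter, was at 0.260, 0.465 and 1.18 against 0.562, 1.29 and 27.5 CPM (3.49 ± 0.74, adjusted p = 0.000864), with its highest value in Ctrl_CE replicate 4. The other 6 were Cend1, Kng2, Cpn2, Acot5, Pde1c and Gmpr, with log2 fold changes from 2.95 to 4.14.

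The 15 largest falls included the chemokines Cxcl5, Cxcl10, Ccl2 and Ccl7, the cytokines Il1b and Il1f9, and Acod1, Slfn4, Clec4e, Ly6c2, Ms4a4c, Mefv and Chil1. With them fell Timp1 and P4ha3, a collagen prolyl hydroxylase, the latter from 0.774, 2.73 and 6.27 to 0, 0.293 and 0.562 CPM without overlap (-3.64 ± 0.71, adjusted p = 0.000337). Ccl2, which recruits monocytes, fell from 3.46, 12.5 and 129 to 0.943, 2.53 and 5.97 CPM (-3.44 ± 0.60, adjusted p = 0.000103). Slfn4 stood at 7.87, 26.5 and 961 CPM in Ctrl_RT and 0.989, 2.64 and 9.11 CPM in Ctrl_CE (-5.49 ± 0.99, adjusted p = 0.000138), and the highest value belonged to Ctrl_RT replicate 7. Mefv fell without overlap, from 1.04, 2.07 and 19.8 to 0.193, 0.288 and 0.831 CPM (-3.55 ± 0.62, adjusted p = 0.000106). The size of most of these falls rested on Ctrl_RT replicate 7. Acod1 stood at 79.9 CPM there and at 0 to 1.65 CPM in the 6 other Ctrl_RT libraries, and Cxcl5 at 16.7 CPM against 0 to 3.11 CPM. Without that library the log2 fold change was -5.03 for Cxcl5, -2.33 for Acod1, -2.68 for Slfn4, -1.71 for Clec4e, -1.57 for Ly6c2, -2.21 for Ms4a4c, -2.59 for Ccl7, -2.41 for Mefv, -2.38 for Ccl2 and -2.05 for Il1b, all still DEGs. Il1f9 (-1.34), Cxcl10 (-0.75) and Chil1 (-0.30) lost the call, while Timp1 (-3.14) and P4ha3 (-3.80) changed little.

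Ucp1 varied among the 7 cold mice from 530.1 to 4481 CPM, and 4 measures were set against its log2 level. Pearson's r was -0.51 with the muscle sum (Spearman's rho -0.64), -0.72 with the B cell sum (rho -0.82), -0.53 with the total count (rho -0.68) and -0.74 with Ucp1 in iBAT of the same mouse (rho -0.54). The exact permutation p of r were 0.243, 0.0615, 0.223 and 0.0518, and of rho 0.139, 0.0341, 0.11 and 0.236, and after adjustment over the 4 the smallest was 0.123 for r and 0.137 for rho. Without the 2 mice farthest from the median of each measure, r was -0.64, -0.60, -0.50 and 0.41, so that the relation with iBAT rested on those mice.

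The response was then set beside that of brown fat of the same mice, with 6 Ctrl_RT and 7 Ctrl_CE iBAT libraries. The study itself left out an iBAT Ctrl_CE library as an outlier, whereas all 7 were kept here. In a joint fit of 26106 genes, the cold response of 1538 genes (5.89%) was higher in iWAT than in iBAT and that of 1143 (4.38%) lower. Among the 35 brown and beige genes it was higher for 19 and lower for 2, with a median log2 fold change of 1.47 in iWAT and 0.45 in iBAT, and the median difference was 1.26, against 0.01 over all genes. These are differences in fold change and not in level. Each of the 19 had a higher mean CPM in iBAT than in iWAT, both in Ctrl_RT and in Ctrl_CE. Ucp1 changed by 0.88 ± 0.58 in iBAT (adjusted p = 0.301), from a mean of 8045 to 14837 CPM, and the difference between depots was 3.22 ± 0.80, adjusted p = 0.00551. That p rests on a spread shared by both depots, and the iBAT libraries themselves did not overlap, with 6813 to 9756 CPM in Ctrl_RT and 13793 to 16398 CPM in Ctrl_CE. Dio2 rose in both depots, with 1.95 ± 0.38 in iBAT and a difference of 2.99 ± 0.52, adjusted p = 0.000174. Cidea changed by -0.11 ± 0.31 in iBAT (difference 1.58 ± 0.44, adjusted p = 0.012), where its Ctrl_RT mean was 2201 CPM, against 145 CPM in iWAT.

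For Ppargc1a and Fgf21 the difference between the depots did not pass the test. Ppargc1a changed by 2.42 ± 0.30 in iBAT and Fgf21 by 2.51 ± 0.31, with differences of 0.31 ± 0.40, adjusted p = 0.685 and 0.34 ± 0.42, adjusted p = 0.661, whose errors leave room for a difference. Lep changed by -0.96 ± 0.42 in iBAT (difference 1.87 ± 0.57, adjusted p = 0.0225). Ckb went the other way: it rose in iBAT by 2.63 ± 0.27 and its response was lower in iWAT by 2.39 ± 0.35 (adjusted p = 2.15e-05). Tmem26 fell in iWAT and gave 1.60 ± 0.61 in iBAT, where its mean was under 1 CPM (difference -3.66 ± 0.67, adjusted p = 0.000273).

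Against eWAT, with 7 libraries a group, the responses of 328 of 30875 genes (1.06%) were higher in iWAT and of 494 (1.6%) lower, 822 in all. The study itself left out 3 eWAT Ctrl_RT libraries as outliers after inspecting principal components, and the paper's text does not say which. Here all 7 were kept. DESeq2 gave 1076 higher and 916 lower. Without eWAT Ctrl_RT libraries 2, 4 and 5, which need not be those the study left out, the counts were 241 and 211. Under both settings the higher calls were the more numerous. With the mouse as a block, since both depots came from the same animals, 388 genes differed, 110 of them higher in iWAT. Of the 35 brown and beige genes, 10 were higher in iWAT and 1 lower, with a median difference of 0.89, against 0.14 over all genes. Ppargc1a changed by 0.59 ± 0.30 in eWAT (difference 2.16 ± 0.43, adjusted p = 0.0101), Cpt1b by -0.88 ± 0.56 (difference 3.62 ± 0.78, adjusted p = 0.0149) and Plin5 by -0.22 ± 0.28 (difference 2.17 ± 0.40, adjusted p = 0.00772), and these 3 calls and that of Sirt3 held with the block. The other 7 did not: Dio2 (blocked adjusted p = 0.123), Gk (0.0652), Pank1 (0.0572), Letmd1 (0.0587), Esrra (0.063), Bmp8b (0.0704) and Tmem26 (0.103), the one that was lower in iWAT. Ucp1 rose in eWAT as well, by 3.49 ± 1.01 (adjusted p = 0.0188), from a mean of 0.141 to 1.66 CPM, against 170.0 to 2974 CPM in iWAT in the same fit, and its fold change did not differ detectably between the depots (difference 0.64 ± 1.44, adjusted p = 0.937).

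**Figure D5:**
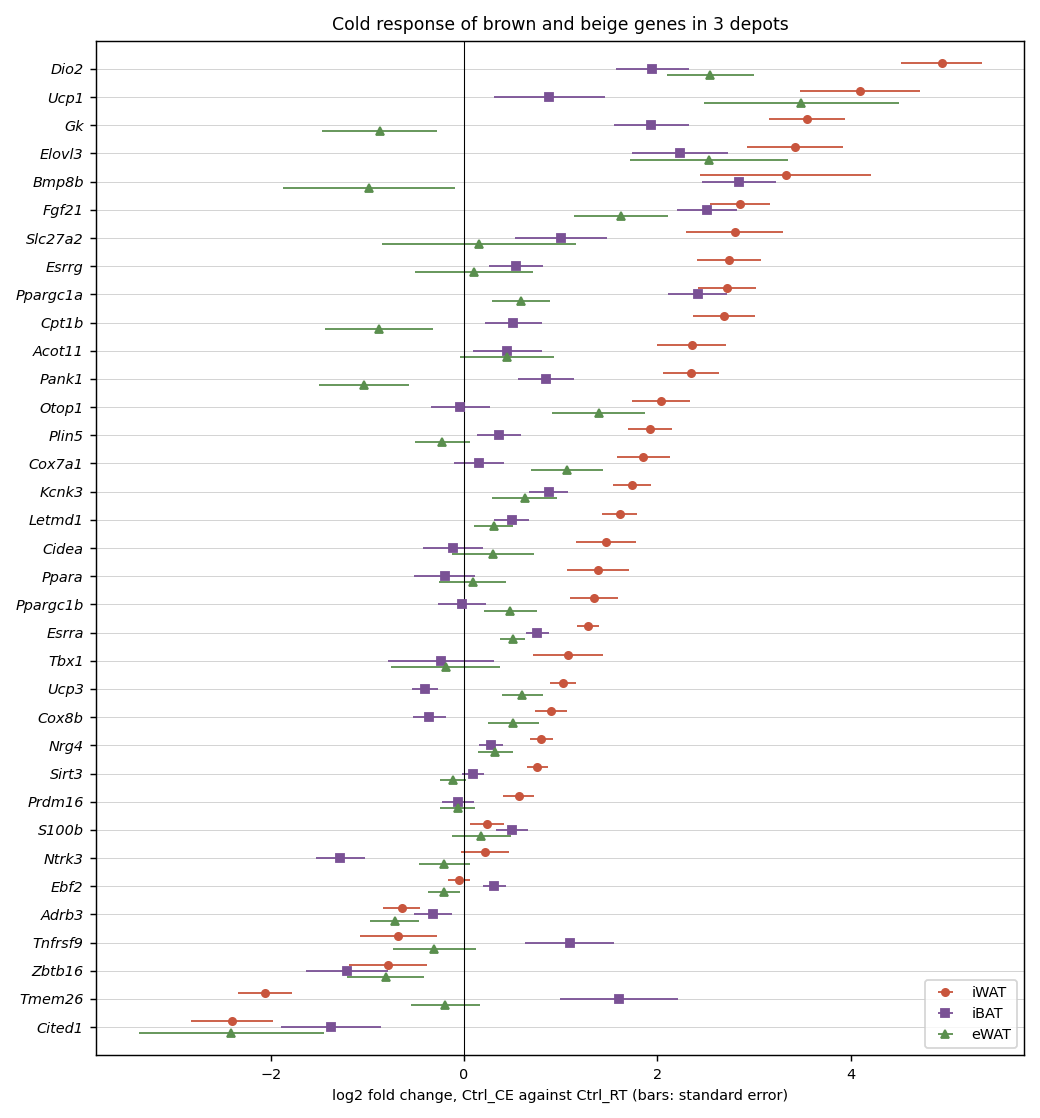
Log2 fold change of Ctrl_CE against Ctrl_RT with its standard error for 35 brown and beige genes in iWAT (circles), iBAT (squares) and eWAT (triangles). Points of iWAT lie furthest right for most genes, Ppargc1a and Fgf21 lie close together in iWAT and iBAT, and Tmem26 lies left in iWAT and right in iBAT.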

How the data were processed

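RNA of iWAT, iBAT and eWAT was sequenced from poly(A) libraries with paired-end reads. The counts per gene were deposited by the authors as whole numbers, not normalized. The submitters' notes name STAR 2.7.9a, featureCounts 2.0.3, Salmon 1.9.0, MultiQC 1.19, DESeq2 1.46.0 and mm10, and the name of the table points to Salmon, so reads shared by near-identical genes may have been split by estimate. Of 56884 identifiers, 51948 were paired with symbols through a gene table, ignoring version numbers, only 35 of which matched. No coordinates were taken from the deposited table, and promoter positions are those of RefSeq on GRCm38.p6.

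Samples were grouped by their labels, and the libraries of one depot came from separate mice, while libraries of different depots can share a mouse. The iBAT libraries were grouped by title, since the treatment tag of iBAT Ctrl_CE replicate 1 names another group, and 0 columns were left without a sample. Genes with at least 10 counts in total were fitted with edgeR 4.0.16 (R 4.3.3, limma 3.58.1, TMM scaling, glmQLFit and glmQLFTest) over the 27 iWAT libraries of both diets with diet, temperature and their interaction, and the cold term on control diet was tested. DEGs had adjusted p under 0.05 and a log2 fold change of at least 0.585 in size. CPM used TMM library sizes, and log2 CPM a prior count of 2. Depots were compared in joint fits of Ctrl_RT and Ctrl_CE with a depot by temperature term, with the mouse, shared through the animal numbers in the labels, as a block in the alternative. On simulated counts with 200 changed genes the iWAT fit recovered 86% of 2-fold and 99% of 4-fold changes, with 8 false calls among 25960 genes, the iBAT difference 72% and 96%, and the eWAT difference 24% and 68%. The changed genes averaged 1 CPM or more, and the spread followed the trend over all genes. No simulated library held RNA of another tissue, as Ctrl_CE replicate 5 did, so these rates need not carry over to the real libraries.

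The genes named were the 15 largest rises and falls among DEGs that averaged 1 CPM or more and had an official symbol, leaving out muscle, B cell, T cell and skin epithelium markers, the 4 largest DEGs of each of 36 gene lists, 20 genes named whatever their values, and 11 isoform pairs. Other list members in the text were chosen after their values were seen, as were the ratio test of the pairs and the ranking without Ctrl_CE replicate 5. The comparison and all lists were chosen with earlier results of these data known, so no list is independent evidence. The alternatives tried were DESeq2 1.42.0 (plain or shrunk by apeglm 1.24.0), other scaling and filters, a subset of libraries, covariates and leaving out each library. Total counts of 17215367 to 31843742 set the counting error, which is largest for genes under 1 CPM. Liver libraries were not used here. Some members of the gene lists are counted but not reported by name here.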

Additional observations from a re-analysis of the deposited data

Results flagged for a closer look

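The highest or lowest library of each group was set against Dixon's 95% critical value for 7 samples, for 165 genes in both groups, 330 group tests in all. In 51 of them 1 library lay further from its nearest neighbour than that value allows. Chance alone flags about 1 in 20 groups, but the 51 cannot be set against that rate. The 165 genes included the largest rises, which owed their rank to Ctrl_CE replicate 5. They also included the largest falls, most of which owed their size to Ctrl_RT replicate 7. Genes of one library are, besides, not independent.

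Ctrl_CE replicate 5 stood out in 18 genes. Among them were the hair follicle genes Krt71 (231 CPM), Krt27 (85.8 CPM), Krt72 (35.9 CPM), Krt25 (109.9 CPM), Krt73 (29.1 CPM), Krtap8-1 (22.7 CPM), Krt75 (17.5 CPM), Krt81 (17.2 CPM), Krt35 (17.2 CPM), Krtap7-1 (17.2 CPM), Krt26 (14.6 CPM), Krtap15 (14.2 CPM), Krt83 (25.04 CPM), Krt33a (23.4 CPM) and Prr9 (23.5 CPM), and beside them Cxcl5 (0.0978 CPM), Il1f9 (0.489 CPM) and Thbs1 (18.4 CPM), in each case as the highest of the group. In Ctrl_RT, Krt83 (0.0299 CPM in replicate 7), Krt33a (0.0280 CPM in replicate 6) and Prr9 (0.0521 CPM in replicate 5) stood out only because the 6 other libraries were at 0.

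Ctrl_RT replicate 5 was the highest of its group for Gpd1 (4497 CPM), Agpat2 (1599 CPM), Hk2 (604 CPM), Dlat (587 CPM), Cs (907 CPM), Ndufv2 (156 CPM), Cyc1 (316 CPM), Atp5o (155 CPM), Slc25a44 (182 CPM) and Bckdk (94.96 CPM). Ctrl_RT replicate 7 was the highest for Slfn4 (961 CPM), Ly6c2 (70.6 CPM), Ms4a4c (86.9 CPM), Cxcl10 (224 CPM), Chil1 (14.9 CPM) and Csf3r (91.8 CPM). Ctrl_CE replicate 4 was the highest for Chil1 (1.26 CPM), Cxcr2 (2.41 CPM), Adipoq (2097 CPM), Cidec (2536 CPM) and Mfsd2a (27.5 CPM), and Ctrl_CE replicate 7 the lowest for Slc25a20 (138 CPM), Bckdk (95.9 CPM) and Acot5 (0.622 CPM). Single genes stood out in the remaining libraries: Ucp1 was lowest in Ctrl_RT replicate 2 (1.27 CPM), Alpl lowest in replicate 6 (2.38 CPM), where C1qb was highest (404 CPM), Hspa1b lowest in replicate 4 (3.72 CPM), Mfsd2a highest in replicate 1 (1.18 CPM) and Npas2 highest in Ctrl_CE replicate 3 (3.09 CPM).

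The cold response differed between depots in an interaction test for the genes that follow, given as the log2 fold change in iWAT minus that in the other depot. Against iBAT the response was higher in iWAT for Ucp1 (3.22), Cidea (1.58), Dio2 (2.99), Ppargc1b (1.37), Ppara (1.59), Esrrg (2.21), Cox7a1 (1.70), Cox8b (1.26), Cpt1b (2.18), Otop1 (2.07), Kcnk3 (0.87), Gk (1.61), Plin5 (1.56), Acot11 (1.91), Letmd1 (1.12), Ucp3 (1.43), Pank1 (1.5), Ntrk3 (1.5), Sirt3 (0.66) and Lep (1.87). It was lower for Tmem26 (-3.66), Tnfrsf9 (-1.77) and Ckb (-2.39). Against eWAT it was higher for Dio2 (2.42), Ppargc1a (2.16), Esrra (0.80), Cpt1b (3.62), Gk (4.45), Plin5 (2.17), Letmd1 (1.33), Pank1 (3.41), Bmp8b (4.43) and Sirt3 (0.88) and lower for Tmem26 (-1.89). With the mouse as a block, the eWAT differences of Dio2, Esrra, Gk, Letmd1, Tmem26, Pank1 and Bmp8b no longer passed the test.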

How the results depend on the processing

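Genes higher in Ctrl_CE numbered 1300 to 1697, and genes lower 2151 to 2575, over DESeq2 with and without shrinkage, another scaling, other filters, the 14 libraries alone, the replicate block and a muscle or B cell covariate, against 1584 and 2627. A test against a 1.5-fold change itself left 299 higher and 375 lower. Without the 5 libraries over 1000 CPM of muscle genes 1038 were higher, in a fit with fewer samples, and with robust dispersions, also added after seeing the data, 1571. Leaving out each replicate in turn gave 1431 to 1818 higher and 2166 to 3130 lower. RLE scaling moved the median of all genes by 0.0225. The replicate numbers did not pair the iWAT libraries: the correlation of same-numbered libraries ran from -0.41 to 0.37, with 2 of 7 pairs over 0.1 and 0 libraries closest to their own number, and the replicate block gave 1376 higher and 2500 lower. Depots of one mouse are paired, and with the mouse as replicate block the difference from iBAT numbered 2890 genes in either direction, against 2681 without it, and that from eWAT 388, against 822. DESeq2 gave 1992 against eWAT, and 452 were called without eWAT Ctrl_RT libraries 2, 4 and 5. The cause was not tested. Of the gene values, 4044 kept direction and side of the threshold, 202 fell below it, 2 passed it and 17 changed sign. Of the depot differences, 10 fell below it, 7 passed it and 7 changed sign. Signs turned for Krt25 (-0.48 with DESeq2, -1.70 without Ctrl_CE replicate 5, -2.32 without the 5 libraries), Krt83 (-0.0676, -1.03 and -1.5) and Prr9 (-0.0677, -1.08 and -1.58), for Ckmt2 (0.18 with the muscle covariate, 0.0814 without the 5 libraries), Acta1 (0.0456 and 0.49), Atp2a1 (0.16 and 0.72) and Myh4 (0.60 without them), and for Cidec (0.00562 without Ctrl_RT replicate 1). Leaving out single libraries gave -1.70 to 10.37 for Krt25, -1.03 to 9.35 for Krt83, -1.08 to 9.29 for Prr9 and -0.19 to 0.00562 for Cidec. Among differences from eWAT they turned for Cited1 (-1.58 with the block), Adrb3 (-0.025) and Adipoq (-0.0236), for Elovl3 (-1.20), Cited1 (-4.17) and Ckmt2 (-0.53) without the 3 eWAT libraries, and for Myh4 (13.20 with DESeq2). On the linear CPM scale the 4 correlations of Ucp1 among cold mice were -0.37, -0.73, -0.58 and -0.63. Against eWAT the simulations, within the limits given above, recovered 24% of 2-fold changes, so small depot differences were largely below detection there.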
